A study of Mus musculus with 8 samples.

Results

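The genes described here were 40 genes of protein folding and quality control in the endoplasmic reticulum (ER), among the 19301 genes in an expression table of mouse tendon stem cells (TSCs). They were 15 chaperones and cochaperones, 7 protein disulfide isomerases, 9 genes of ER-associated degradation (ERAD), 6 genes of protein entry into or export from the ER, and 3 stress sensors or their transcription factors. The genes were chosen by symbol, with earlier results of the same comparison of high fat, high glucose (HFHG) medium against low glucose medium known, so their differences between the media are given as a description with no test. The study examined how disordered glucose and lipid metabolism acts on TSCs. RNA came from primary TSCs of mice kept for 4 days in low glucose medium (LG) or in HFHG medium, which holds more glucose and palmitic acid, a saturated fatty acid. Each medium had 4 biological replicates, and both groups carried no other treatment or allele in the labels. These libraries hold cells in culture and the labels do not say from how many mice they were grown.

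Proteins that are secreted or inserted into membranes enter the ER through the Sec61 channel and fold there with the help of chaperones, lectins and enzymes that form disulfide bonds. Proteins that fail to fold are passed back to the cytosol by ERAD and degraded. When unfolded proteins accumulate, the sensors IRE1 (encoded by Ern1), ATF6 and PERK (encoded by Eif2ak3) start the unfolded protein response (UPR), in which spliced XBP1 and cleaved ATF6 raise the transcription of chaperone and ERAD genes, while PERK slows translation and acts through ATF4. Tendon cells secrete large amounts of collagen, which also needs ER factors of its own.

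The values were FPKM, in which fragments are scaled to gene length and to library size, so levels can be compared between genes per unit of length. Recovered library totals ran from 34308108 to 37362725 reads. In the first principal component, which held 81% of the variance, the groups lay apart, and the second, with 4.18%, set LG replicate 4 apart from the others. The cell label was checked against markers. Of 15 tendon and mesenchymal genes all 15 passed the filter on low values, with Bgn, Dcn and Col1a1 at 202 FPKM or more in every library, but the tendon transcription factor Scx was at 0.983 to 2.88 FPKM and Tnmd, a mature tendon cell gene, at 0.220 to 1.19 FPKM. The markers of endothelium, muscle and adipocytes each summed to at most 4.36 FPKM in a library, and of these Vwf (-1.20) and Acta1 (-1.82) were lower and Tek (0.47) higher in HFHG (limma), at levels of 0.358 to 3.90 FPKM. Macrophage markers were present in both groups, with Lyz2 at 1615 to 1811 FPKM.

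All 40 genes passed the filter (at least 0.5 FPKM in at least 4 of the 8 libraries), with 106 to 171066 reads per gene and library. Summed over the 40 genes, the level was 6231 to 6291 FPKM in HFHG and 10735 to 10805 FPKM in LG, and the share of all reads was 1.69% ± 0.00458 (SD, n = 4) against 2.80% ± 0.0134. The groups did not overlap in these sums. The 5 most abundant genes, Hspa5, Calr, Hsp90b1, Pdia3 and P4hb, held 61.7% of the summed FPKM in HFHG and 63.9% in LG (means of 4 libraries). In bulk RNA, fewer cells of a type and less RNA per cell cannot be told apart.

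By gene, 33 of the 40 had an adjusted p-value below 0.05 and a lower level in HFHG, against 30.8% of the 11710 genes tested, and 4 of 40 had a higher level, against 34% of all genes tested. The other 3 genes were not called. The same 37 genes had no overlap between the groups, against 59.2% of all genes tested. Past a 2-fold difference, the threshold of the study, 7 of 40 were lower against 1.65% of all genes tested. The choice of the genes used this comparison, so nothing is read from these shares. The same holds for the counts by role given below, which stand against the same 30.8% lower and 34% higher. The median log2 difference (HFHG minus LG) was -0.42 for the 40 genes and 0.02 for all genes tested, and it ran from -1.80 (Sdf2l1) to 0.24 (Edem2). Manf, at -1.04, lay just past the 2-fold line and Dnajb9, at -0.98, just short of it. The chaperones had the lowest median (-0.93), followed by the disulfide isomerases (-0.45), the sensors (-0.32), ERAD (-0.28) and translocation and export (-0.26).

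**Figure D1:**
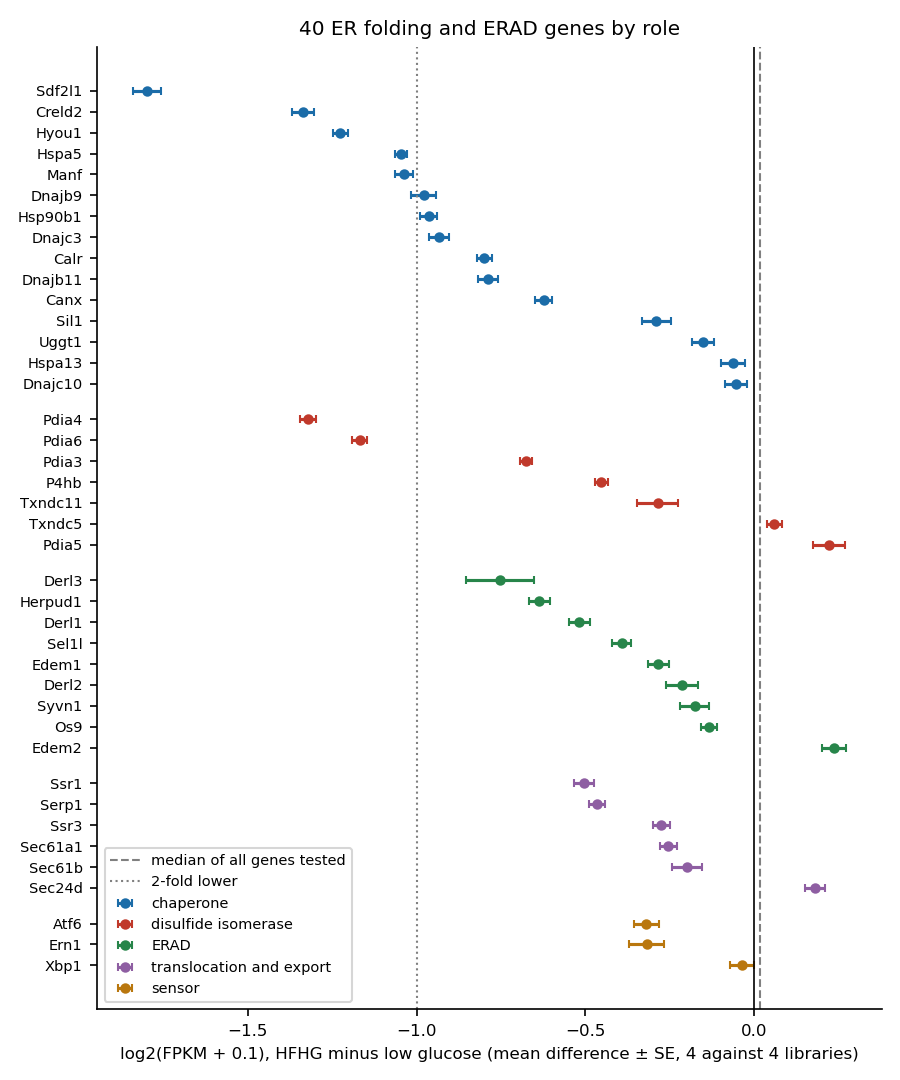
Log2 difference between HFHG and LG in log2(FPKM + 0.1) with its standard error (4 against 4 libraries) for each of the 40 genes, coloured by role. The dashed line is the median of all genes tested (0.02) and the dotted line a 2-fold lower level. The chaperones and Pdia4 and Pdia6 reach furthest to the left, and Txndc5, Pdia5, Edem2 and Sec24d lie to the right of 0.

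Hspa5 encodes BiP, the main Hsp70 chaperone of the ER lumen and a standard readout of the UPR (mm10, chr2:34771970-34777547). Its level was 1857, 1859, 1869.5 and 1834 FPKM in the 4 LG libraries and 901, 893, 892 and 907 FPKM in the 4 HFHG libraries. Among all genes in the table it ranked 13 by mean level in LG and 44 in HFHG. The log2 difference was -1.05 ± 0.02 (SE). Hsp90b1, which encodes the Hsp90 chaperone GRP94 (chr10:86690209-86705509), had 1449 to 1582 FPKM in LG and 766 to 794 FPKM in HFHG, a log2 difference of -0.96 ± 0.03.

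Promoter sequence was not used in choosing the genes. Most of them are chaperone and ERAD genes, however, the kind whose transcription ATF6 and XBP1 raise. Matches were therefore likely from the outset, and nothing is read from the shares below. The ER stress element (ERSE) is a promoter sequence, CCAAT and CCACG separated by 9 bases, which is bound by the factor NF-Y at CCAAT and by ATF6 or XBP1 at CCACG. Promoters of 250 bases before to 50 after the start were listed in RefSeq (GRCm38.p6, the build of mm10) for 33 of the 40 genes, and the element was searched on both strands. It was found in 9 of the 33 (27.27%) and in 37 of all 27025 genes with a listed promoter (0.1369%). The 9 genes were Hspa5, Hsp90b1, Calr, Canx, Dnajc3, Creld2, Pdia6, Derl3 and Syvn1, and Hsp90b1 held it at 2 places. The lines below show it, 5′ to 3′ on the strand of the gene, in the gene with the best known element (Hspa5), in the genes with the largest and the smallest difference (Creld2 and Syvn1), and in 3 further genes, the chaperone gene Hsp90b1 (the match nearer to the start), the isomerase gene Pdia6 and the ERAD gene Derl3. Capitals mark the CCAAT and CCACG parts, which read ATTGG and CGTGG where the element lies on the opposite strand.
Hspa5: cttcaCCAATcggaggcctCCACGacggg
Creld2: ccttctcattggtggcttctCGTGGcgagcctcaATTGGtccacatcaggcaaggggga
Pdia6: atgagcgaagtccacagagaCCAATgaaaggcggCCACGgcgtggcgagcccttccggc
Hsp90b1: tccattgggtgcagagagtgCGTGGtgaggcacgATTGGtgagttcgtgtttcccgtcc
Derl3: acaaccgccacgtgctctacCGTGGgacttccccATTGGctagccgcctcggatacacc
Syvn1: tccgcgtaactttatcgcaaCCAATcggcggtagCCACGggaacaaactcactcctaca

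These stretches lie at chr2:34772020-34772048 (Hspa5, plus strand), chr15:88819500-88819558 (Creld2, plus), chr12:17266471-17266529 (Pdia6, plus), chr10:86705513-86705571 (Hsp90b1, minus), chr10:75893222-75893280 (Derl3, plus) and chr19:6046512-6046570 (Syvn1, plus). The elements shown began between 44 bases (Syvn1) and 156 bases (Derl3) before the listed start. As a description, the median log2 difference was -0.93 in the 9 genes with the element and -0.28 in the 24 without it, with a range of -1.34 (Creld2) to -0.18 (Syvn1) in the former. Sdf2l1 and Pdia4, with differences of -1.80 and -1.32, held no match in the window searched, and Hyou1 and Manf had no promoter in the table. In the 8 other tested genes with the element the median was -0.04, close to that of all tested genes without it (0.02). The plain CCAAT box, part of every ERSE, was in 24 of the 33 genes (72.73%) and in 41.06% of all promoters. A match is a string of letters and does not show that a factor was bound.

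A shorter form, ERSE-II, joins ATTGG and CCACG across 1 base. It was found in Herpud1 and Dnajb11, 2 of 33 genes (6.061%), and in 12 of 27025 genes (0.0444%). The UPR element (UPRE), TGACGTGG, was found in Txndc5, Txndc11 and Sec24d, 3 of 33 genes (9.091%), and in 0.7142% of all genes with a promoter. The matches are shown for comparison with the ERSE genes, since 2 of these genes (Txndc5 and Sec24d) were higher in HFHG, with the matched letters in capitals and, in ERSE-II, the base between the parts in lower case.
Herpud1: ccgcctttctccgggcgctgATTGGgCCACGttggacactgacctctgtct
Dnajb11: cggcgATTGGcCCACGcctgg
Txndc5: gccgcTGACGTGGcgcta
Sec24d: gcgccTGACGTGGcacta
Txndc11: gtggcTGACGTGGagagt

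Herpud1 (chr8:94386357-94386407, plus strand) and Dnajb11 (chr16:22857847-22857867, plus) had log2 differences of -0.64 and -0.79. The UPRE of Txndc5 (chr13:38528040-38528057, minus) and of Sec24d (chr3:123267465-123267482, plus) belonged to genes with differences of 0.06 and 0.18, and that of Txndc11 (chr16:11134622-11134639, minus) to one with -0.29. These positions are relative to the RefSeq starts. The gene bounds given here are those of GENCODE, which begin further upstream in Hspa5, Txndc5, Txndc11 and Sec24d, so that their matches lie inside them, and the match of Dnajb11 lies just after both starts.

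**Figure D2:**
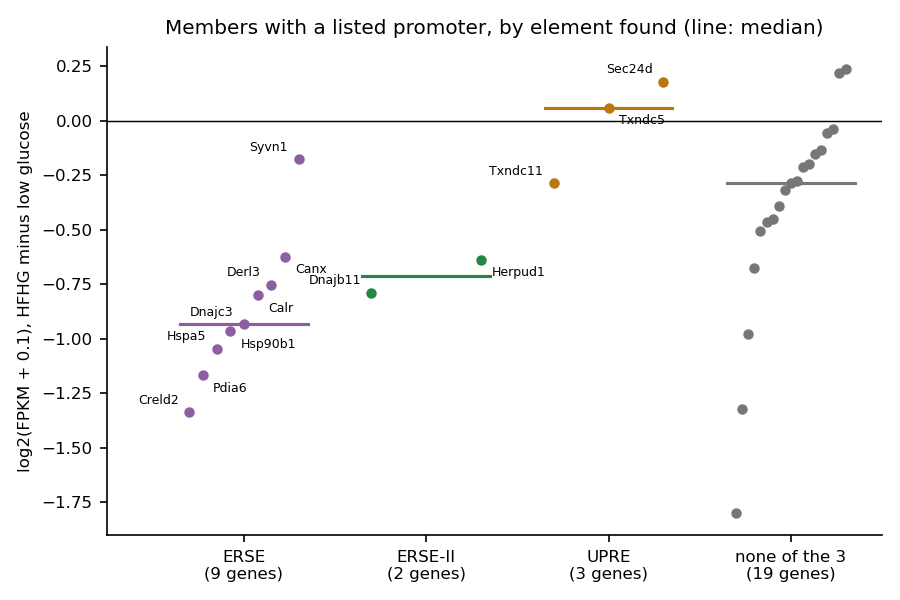
Log2 difference between HFHG and LG (y axis, log2(FPKM + 0.1)) of the 33 genes with a listed promoter, grouped by the element found (x axis), with the median of each group as a line. The 9 ERSE genes lie from -1.34 to -0.18, while Sdf2l1 and Pdia4, the lowest of the 19 genes in which none of the 3 elements was found, lie at -1.80 and -1.32.

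Among the chaperones, 13 of 15 were lower in HFHG (30.8% of all genes tested were) and 2 were not called. Sdf2l1 encodes an ER protein that works with the cochaperone ERdj3 on BiP clients (chr16:17130138-17132383). Its levels were 138, 133, 142 and 155 FPKM in LG and 39.95, 41.7, 39.9 and 41.2 FPKM in HFHG, a log2 difference of -1.80 ± 0.04. It had the largest difference of the 40 genes, and 32 of the 11710 genes tested lay further down. Creld2, an ER stress-induced gene (chr15:88819646-88826683), was at 146, 145, 148 and 156 FPKM in LG and at 60.4, 57.6, 61.2 and 56.1 FPKM in HFHG (-1.34 ± 0.03). Hyou1, which encodes the nucleotide exchange factor GRP170 of BiP (chr9:44379490-44392369), was at 140.3, 139, 138 and 137 FPKM in LG and at 58.9, 59.5, 58.8 and 59.5 FPKM in HFHG (-1.23 ± 0.02). In these 3 genes the gap between the groups was wider than the range within either. Calr, which encodes the lectin chaperone calreticulin (chr8:84841850-84846934), had the highest mean level of the chaperones over the 8 libraries, with 1785, 1760.5, 1796 and 1851 FPKM in LG and 1038, 1051, 1039.5 and 1003 FPKM in HFHG (-0.80 ± 0.02).

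The cochaperones of BiP were spread over this range. The DnaJ proteins recruit clients to BiP, and 3 of their 4 genes were lower, Dnajb9 by -0.98, Dnajc3 by -0.93 and Dnajb11 by -0.79, while Dnajc10, which also reduces disulfides for ERAD, was at -0.05 and not called. Sil1, the other exchange factor, was at -0.29. Hspa13, an Hsp70-like gene of microsomes, was at -0.06 and not called. Manf, a secreted ER stress-induced factor that binds BiP, was at 472 to 506 FPKM in LG and 230.1 to 243 FPKM in HFHG. In the calnexin cycle, which folds glycoproteins, Canx was at -0.62 and Uggt1, the enzyme that marks unfolded glycoproteins for another round, at -0.15.

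Of the disulfide isomerases, 5 were lower and 2 higher. Pdia4, which encodes ERp72 (chr6:47796141-47813430), was at 375, 385, 391 and 377 FPKM in LG and at 148, 154, 155 and 154 FPKM in HFHG (-1.32 ± 0.02). Pdia6, which encodes the BiP-associated isomerase P5 (chr12:17266545-17284770), was at 545, 537, 542 and 558 FPKM in LG and at 251, 241, 241 and 238 FPKM in HFHG (-1.17 ± 0.02). Pdia3, the isomerase that works with calreticulin and calnexin on glycoproteins (chr2:121413775-121438687), had the highest mean level of its role over the 8 libraries. Within the HFHG libraries alone, P4hb lay above Pdia3. Pdia3 was at 901, 891, 897 and 897 FPKM in LG and at 570.3, 556, 561 and 560.5 FPKM in HFHG (-0.67 ± 0.02). The groups were fully apart in all 3. P4hb, which is both an isomerase and a subunit of the collagen prolyl 4-hydroxylase, was at -0.45, and Txndc11 at -0.29. Pdia5, at 22.9 to 26.1 FPKM in LG and 27.0 to 29.9 FPKM in HFHG, was higher by 0.22. Txndc5 was higher by 0.06, and its call was lost when any of 6 of the 8 libraries was left out.

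Among the ERAD genes, 8 of 9 were lower, and none reached 2-fold. Derl3, one of the derlins that form the exit channel with HRD1 (chr10:75893413-75895941), was the least expressed of the 40, at 4.58, 3.89, 4.26 and 4.52 FPKM in LG and 2.57, 2.29, 2.19 and 3.09 FPKM in HFHG (-0.75 ± 0.10). It also had the largest standard error. Herpud1, which assembles the ERAD complex (chr8:94386438-94395377), was at 80.8, 78.4, 78.0 and 84.0 FPKM in LG and at 52.4, 51.6, 52.4 and 49.9 FPKM in HFHG (-0.64 ± 0.03). Derl1 (chr15:57869502-57892448), the ERAD gene with the highest level, was at 87.5, 87.7, 89.1 and 91.8 FPKM in LG and at 61.0, 66.0, 60.9 and 60.8 FPKM in HFHG (-0.52 ± 0.03). The gap between the groups was wider than the range within either in all 3 genes except Derl3. The ligase of the complex, Syvn1 (HRD1), was at -0.18, its adaptor Sel1l at -0.39, the lectin Os9 at -0.13 and Derl2 at -0.21. The mannosidase-like genes that mark glycoproteins for ERAD went both ways, Edem1 at -0.28 and Edem2 at 0.24.

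Of the 6 genes of translocation and export, 5 were lower. Ssr1, a subunit of the TRAP complex beside the Sec61 channel (chr13:37966605-37994217), was at 39.1, 39.0, 39.2 and 39.1 FPKM in LG and at 28.5, 26.5, 27.8 and 27.6 FPKM in HFHG (-0.50 ± 0.03). Serp1, a small protein that stabilizes membrane proteins at the channel (chr3:58519817-58525892), was at 162, 167, 169 and 163 FPKM in LG and at 118, 121, 120.3 and 120.1 FPKM in HFHG (-0.46 ± 0.02). Ssr3 (chr3:65379655-65392623), the most abundant of the role, was at 263, 275, 270.1 and 262 FPKM in LG and at 226, 214, 221 and 224 FPKM in HFHG (-0.27 ± 0.03). The channel subunits Sec61a1 and Sec61b were at -0.25 and -0.20. Sec24d, which selects cargo for COPII vesicles, was the exception, at 26.5 to 27.6 FPKM in LG and 30.3 to 31.3 FPKM in HFHG (0.18).

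Of the transcripts of the UPR's own switches, 2 were lower and Xbp1 was not called. Xbp1 (chr11:5520659-5525893) was at 65.0, 67.2, 69.7 and 72.1 FPKM in LG and at 68.6, 67.7, 65.8 and 65.0 FPKM in HFHG, so that the groups overlapped (-0.04 ± 0.03). The table has 1 value per gene, which does not separate the spliced from the unspliced Xbp1 transcript. Atf6 (chr1:170704674-170867771) was at 22.1, 22.7, 22.4 and 20.9 FPKM in LG and at 17.0, 17.9, 17.7 and 18.1 FPKM in HFHG (-0.32 ± 0.04). Ern1 (chr11:106394650-106487852) was at 11.3, 11.4, 10.9 and 10.03 FPKM in LG and at 8.74, 8.93, 8.98 and 8.21 FPKM in HFHG (-0.32 ± 0.05). Both lay lower in every HFHG library. The activity of IRE1 and ATF6 depends on splicing and cleavage and was not measured.

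**Figure D3:**
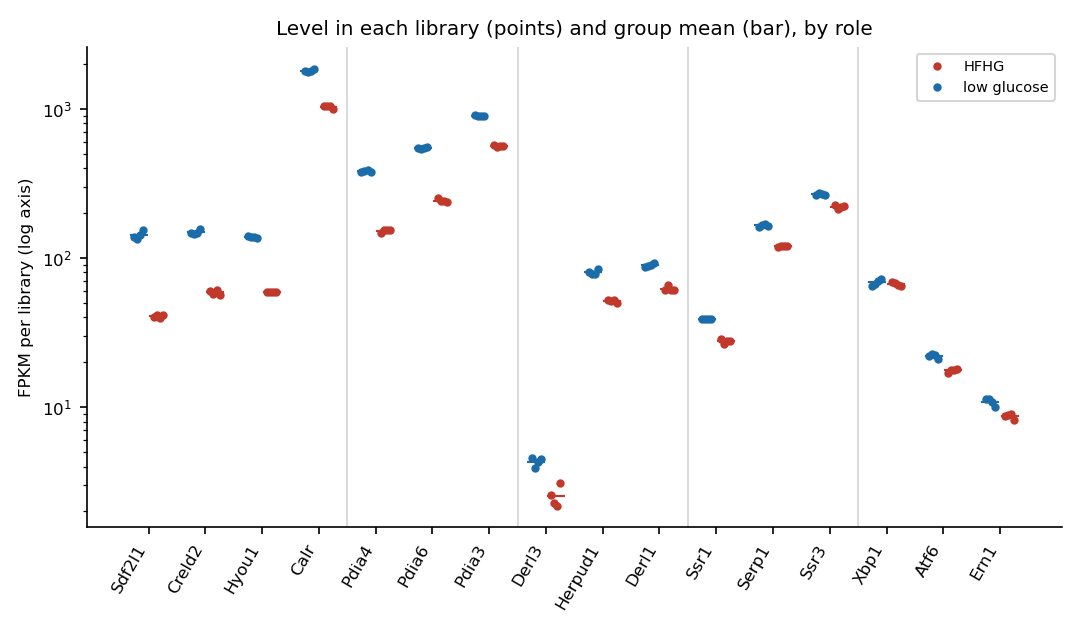
FPKM on a log axis in each of the 4 HFHG and 4 LG libraries (points) with the group mean (bar) for the 16 genes given library by library, grouped by role. The groups are apart for every gene except Xbp1, whose libraries all lie between 65.0 and 72.1 FPKM.

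Beside the 40 genes, 155 other ER genes were put in 5 lists by function, and 153 of these genes passed the filter. Of these, 66 were lower (30.8% of all genes tested were) and 42 higher (34% of all were) in HFHG at an adjusted p-value below 0.05 (limma), and 45 were not called. Their median difference was -0.04. With the libraries rescaled to the same sum of FPKM, 53 were lower and 58 higher. The whole set of genes shifted likewise, from 3609 lower and 3983 higher to 3002 lower and 4682 higher. The list of translocon, signal peptidase and glycosylation genes had 24 of 41 lower and 2 higher (median -0.18), with 9 higher after the rescaling, 7 under quantile normalization, and 4 without LG replicate 4 or with voom. The other lists went both ways, with 14 lower and 13 higher of 35 folding factors, 10 and 7 of 29 ERAD factors, 13 and 12 of 33 COPII and cargo genes, and 5 and 8 of 15 sensors, proteases and regulators. Of the last list only 3 were lower after the rescaling, without LG replicate 2 or without LG replicate 3. These lists and those described below were made with earlier results of these data known. Their counts and p-values are therefore given as a description. Whether the 40 genes differ from these lists was not tested.

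Among the other folding factors, Ero1a, the oxidase that recharges the disulfide isomerases, had the largest difference. Its level was 589, 607, 599 and 555 FPKM in LG and 203, 201, 204 and 204 FPKM in HFHG (-1.53 ± 0.03, adjusted p = 2.68e-13, limma). Rcn3, a calcium-binding protein of the secretory pathway, was at 88.3 to 102 FPKM in LG and rose to between 179 and 182 FPKM in HFHG (0.93 ± 0.04, adjusted p = 2.28e-10), and Qsox1, a sulfhydryl oxidase of the Golgi, rose by 0.90 ± 0.03 (adjusted p = 1.2e-11). Several other folding factors also rose, and they were picked after their values were seen. These were Fkbp10 (0.78), Fkbp7 (0.76), Fkbp9 (0.66), Crtap (0.37) and the collagen chaperone gene Serpinh1 (0.13), beside a rise of Col1a1 of 1.36. In contrast P3h1, the partner of Crtap in collagen hydroxylation, fell by 0.14 and Ppib by 0.65. Of the same list of folding factors 14 genes were lower and 13 higher, and the lower ones included Fkbp11 (-0.85).

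In the remaining ER lists, the lowest values were those of 2 subunits of the same form of the oligosaccharyltransferase, which attaches N-glycans, Magt1 at -0.91 ± 0.04 (adjusted p = 1.08e-09) and Stt3b at -0.79 ± 0.03 (adjusted p = 3.72e-11), with the signal peptidase subunit Spcs2 at -0.62 ± 0.03. Stt3a, the catalytic subunit of the form tied to the Sec61 channel, was at -0.13. Of the other ERAD genes, the mannosidase Edem3 rose by 0.63 and the glycanase Ngly1 by 0.44, and the ligase Rnf185 fell by 0.53. The COPII coat gene Sec23a rose by 0.66 and the SNARE gene Sec22b by 0.47, whereas Mia2, a cargo receptor for large secreted proteins, fell by 0.59.

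Eif2ak3, which encodes PERK, was at 8.50 to 8.93 FPKM in LG and at 12.2 to 12.9 FPKM in HFHG (0.51 ± 0.04, adjusted p = 2.16e-07). It rose, while Atf6b, a relative of Atf6, fell by 0.42 (adjusted p = 5.81e-06) and Wfs1 by 0.53, and Creb3l1, a membrane-bound transcription factor of bone and collagen-secreting cells, rose by 0.75 ± 0.06 (adjusted p = 1.06e-07). Of 22 genes listed for the PERK and ATF4 branch, Atf4 itself among them, 21 were lower (30.8% of all genes tested were). The other 1 (Sesn2, 0.27) was higher (34% of all were), and the median was -0.97. Ddit3, which encodes CHOP, was at 199, 196, 196 and 212 FPKM in LG and at 71.1, 63.3, 68.0 and 67.6 FPKM in HFHG (-1.57 ± 0.04, adjusted p = 2.46e-12). Atf4 itself fell by 0.50 ± 0.02 (adjusted p = 2.4e-09). The largest differences of the list were those of Cth, an enzyme of cysteine synthesis (-2.34), Trib3 (-1.81) and the cystine transporter gene Slc7a11 (-1.58).

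Outside the ER, 18 of 25 cytosolic and mitochondrial heat shock genes were lower and 6 higher (median -0.35). Of all genes tested, 30.8% were lower and 34% higher. The cytosolic Hsp70 genes Hspa1a and Hspa1b had the lowest values (-2.05 and -1.75), but they are near-identical copies and how their reads were split is not known. The mitochondrial cochaperonin gene Hspe1 fell by 1.14. Cryab, a small heat shock protein gene chosen after its value was seen, rose by 0.84.

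**Figure D4:**
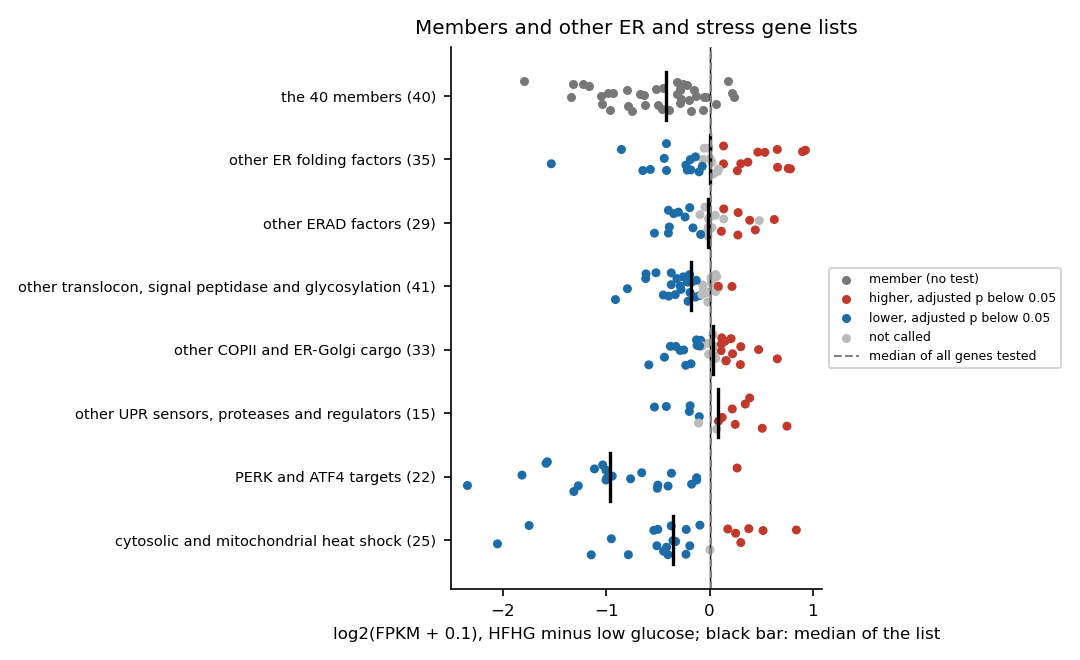
Log2 difference between HFHG and LG (x axis, log2(FPKM + 0.1)) of each tested gene in the 40 described genes and in 7 other lists (y axis, number of genes in parentheses), with the list median as a black bar and calls at an adjusted p-value below 0.05 in colour. The 40 genes have a median of -0.42 and the ATF4 list of -0.97, while 3 of the 5 other ER lists have medians between -0.01 and 0.03.

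Replicates of 1 medium differed little for these genes. The median coefficient of variation of the 40 genes was 2.33% in HFHG and 2.68% in LG, against 4.93% and 5.91% over all genes tested. The 40 genes have higher levels than most genes, so more reads stand behind each. Across the 40 genes the difference between the media was lower for genes of higher mean level (Spearman's rho -0.50 over 40 genes, -0.17 over all genes tested), which is a description across genes that share the same 8 libraries.

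LG replicate 4, which stood apart in the second principal component, was the highest LG library for 16 of the 40 genes and the lowest for 13. Short genes tended to be high there (Sdf2l1 and Sec61b) and long ones low (Ern1 and Atf6), but the long Sil1 and Derl2 were also highest there and the shorter Dnajb9 and Hspa5 lowest. Over the 40 genes, the deviation of this library from the LG mean had a Spearman's rho of -0.59 with the recovered gene length (-0.44 over all genes tested), and LG replicate 2 had 0.55 (0.30 over all genes tested). The deviations within LG reached at most 0.13 up and 0.14 down in log2. The difference between the media also had a rho of 0.34 with length over the 40 genes (0.15 over all genes tested), lower in shorter genes. Without LG replicate 4, Hspa13 and Dnajc10 also had an adjusted p-value below 0.05 and 35 of the 40 genes were lower.

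**Figure D5:**
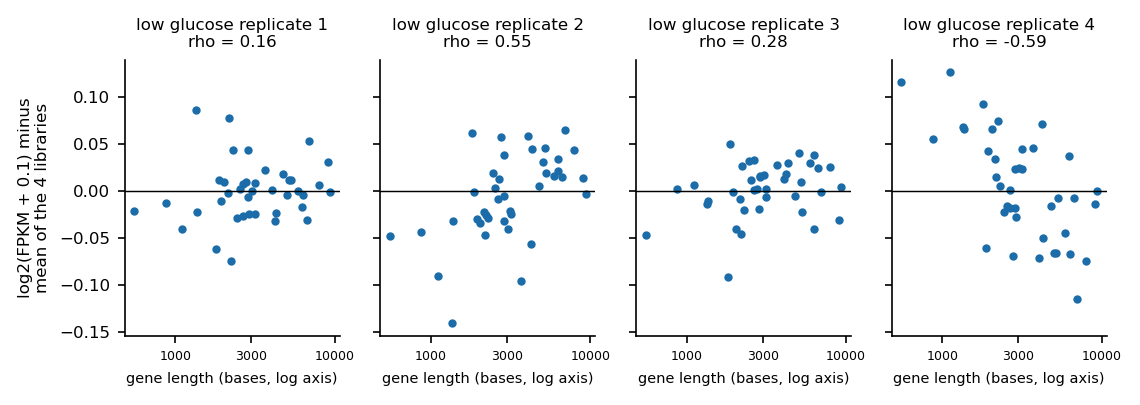
Deviation of each LG library from the mean of the 4 LG libraries in log2(FPKM + 0.1) (y axis) against the recovered gene length in bases (x axis, log scale), 1 point for each of the 40 genes. In replicate 4 short genes tend to lie above and long genes below 0 (Spearman's rho -0.59), with exceptions among both, and in replicate 2 the tendency is the reverse (rho 0.55).

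Markers of macrophages moved with the media as well. Of 10 macrophage genes, 9 passed the filter, 7 were lower in HFHG and 1 (Cd14, 0.26) was higher. Their summed level was 1743 to 1793 FPKM in HFHG and 1899 to 1983 FPKM in LG, and without Lyz2 it was 127 to 131 FPKM against 164 to 172 FPKM. C1qa was at -0.97, Mrc1 at -0.86 and Adgre1 at -0.52, while the leukocyte gene Ptprc was at 1.71 to 2.44 FPKM in all libraries and not called, and Cd163 was at most at 0.044 FPKM. The sum of the tendon and mesenchymal markers was higher in HFHG (5277 to 5336 FPKM against 3995 to 4059 FPKM). Of these 15 genes, 11 were higher and 3 lower, against 34% and 30.8% of all genes tested. The lower ones were Mkx (-0.35), Itgb1 (-0.25) and Cd44 (-0.13), and Dcn was not called. Scx (0.61) and Tnmd (0.86) were among the higher ones, with as few as 56 and 10 reads in a library. For Scx the groups overlapped. By qPCR, the study found Scx and Tnmd lower in HFHG medium and Mkx without a significant change. The part of these marker shifts in the differences of the 40 genes was not tested.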

How the data were processed

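mRNA libraries (a stranded kit) of 4 HFHG and 4 LG cultures of primary TSCs were sequenced by the authors, who deposited 1 FPKM value per gene and library for 19301 genes. The submitters' processing notes name HISAT2 2.1.0 and the mm10 build. The counting program, the annotation and the strand setting are not given in the sources used here. The p-values measure the spread between cultures whose animals of origin the labels do not give.

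Reads behind each FPKM were recovered as whole numbers for 100% of genes within a relative tolerance of 1e-06, and library totals were 35385644 to 37362725 (HFHG) and 34308108 to 36308533 (LG). Genes with at least 0.5 FPKM in at least 4 of 8 libraries were tested (11710 genes) with limma 3.58.1 in R 4.3.3 (lmFit, eBayes with trend) on log2(FPKM + 0.1), which understates the differences of low genes, as HFHG minus LG with Benjamini-Hochberg adjustment. The threshold of the study's methods (2-fold and unadjusted p below 0.05) was used beside it. Errors are standard errors of the fit or SD over libraries. The fit was also run on simulated data, in which few genes changed and no library deviated with gene length. That run therefore cannot show how the fit behaves where these features are present, as here. Positions came from GENCODE M21 (GRCm38, the same build as mm10) and promoters from RefSeq (GRCm38.p6).

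The 40 genes, the lists and the rule for named genes were chosen with earlier results of these data known. In each role, values per library are given for the 3 genes with the largest difference, the gene with the highest mean level and all sensors, and in each other list the 3 called genes with the largest difference and Eif2ak3, Atf6b, Atf4, Ddit3 and Ero1a are named. Other genes, such as Hspa5 and the rest of the 40, were added. A check of retention tails on the proteins was not run.

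Other settings were tried 1 at a time. They were pseudocounts of 1 and of 0.01, a minimum of 1 FPKM or none, 3 other scalings (an equal FPKM sum, median ratios, quantiles), a block for the replicate number, robust eBayes, leaving out each library, and voom on the recovered reads.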

Additional observations from a re-analysis of the deposited data

Results flagged for a closer look

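In 9 of 128 groups of 4 libraries (40 genes and the named genes of the other lists, in each medium), 1 library lay far from the other 3 by Dixon's criterion, which chance meets in about 1 in 20 groups. Among the 40 genes these were, in HFHG, Dnajc10 in replicate 3 (62.1 FPKM against 64.8 to 65.1), Pdia4 in replicate 1 (148 against 154 to 155), Derl1 in replicate 2 (66.0 against 60.8 to 61.0), Os9 in replicate 4 (51.9 against 52.8 to 52.9) and Serp1 in replicate 1 (118 against 120.1 to 121). In LG, Sec61b lay apart in replicate 4 (124.8 FPKM against 111 to 113), the library that deviated with gene length. In the other lists, Magt1 lay apart in HFHG replicate 1 (21.4 FPKM), and Hspa1b (6.62 FPKM) and Hspe1 (65.4 FPKM) in HFHG replicate 4.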

How the results depend on the processing

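Over the 18 alternatives, 33 to 35 of the 40 genes were lower and 3 or 4 higher, and no difference of the 40 genes changed its direction with a call. The number 2-fold lower was 7, with 4 under quantile normalization, 5 after rescaling to the same sum and 8 without HFHG replicate 4. The median difference of -0.42 was -0.36 after rescaling to the same sum and -0.35 under quantile normalization, which also turned Calu (0.11) and Selenof (0.15), both lower in the fit reported, to higher. The cause was not tested. Txndc5 lost its call with median-ratio scaling (0.04), with the replicate block and in 6 fits with a library left out. voom on the recovered reads called 4104 of all genes higher and 3678 lower, against 3983 and 3609.

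Same-numbered libraries showed no shared deviation, and the labels do not say whether they shared an animal or a day of culture. The deviations of same-numbered libraries from their group means had correlations of -0.0736 to -0.00558. With the replicate block, 33 of the 40 genes were lower and 3 higher, and 62 of the other ER genes were lower and 40 higher. With libraries left out in turn, the count of the 40 genes lower was 33 to 35, higher 3 to 4 and 2-fold lower 7 to 8.

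Depth limited Derl3 most, with as few as 106 reads in a library.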
